A study of Mus musculus with 4 samples.

Results

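Arterial and venous identity genes were followed in single-cell RNA profiles of mouse aortic cells. The 9 genes, chosen by name from 18767 genes in the count matrix, were the arterial genes Efnb2, Gja4, Gja5, Sox17 and Unc5b and the venous genes Nr2f2, Ephb4, Nrp2 and Emcn. All 9 had counts in every library, and each was read for its level, the share of cells with a count, its joint detection with the others and its difference between genotype labels. The genes were proposed with earlier results of these data in view, so their own values are given as a description and nothing is read from whether one of them passed a threshold. Adjusted p-values are printed for genes outside the set.

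Aortas, from the root to below the iliac artery and stripped of adventitia, came from male C57BL/6J mice aged 1.5 to 3 months. The mice carried floxed Jag1 alleles (Jag1 fl/fl) with the Cdh5-CreERT2 transgene, labelled Jag1ECKO, or without it, labelled Jag1ECWT. Cdh5 drives expression in endothelial cells (EC), so the tamoxifen-activated Cre acts there, and mice of both labels received it (2 mg a day over 5 days). Cells positive for CD31 and negative for CD45 were sorted 1 per well and sequenced by SORT-seq, a plate method with unique molecular identifiers that counts the 3' ends of transcripts. There were 2 libraries for each label, here called Jag1ECKO 1 and 2 and Jag1ECWT 1 and 2, and nothing in the labels says whether the 2 came from separate mice, so p-values measure only the spread between these libraries.

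Of 991 deposited cells, 824 had more than 1200 genes and were kept. Jag1ECKO 1 gave 202 cells, Jag1ECKO 2 gave 236, Jag1ECWT 1 gave 140 and Jag1ECWT 2 gave 246, at a median of 4212, 6517.5, 5576.5 and 5216 counts per cell. Well names recurred (324 of 373 in 2 or more libraries) but no 2 cells had identical profiles. EC markers were present in all 4 libraries, with Pecam1 at 4509 to 4785 CPM (counts scaled to the same total in each library). Jag1, the gene that should be lost, went against the labels, at 158 and 70.8 CPM in the libraries labelled Jag1ECKO and 32.6 and 26.1 CPM in those labelled Jag1ECWT. Whether the counted 3' ends lie in the part removed by Cre is not given in the sources used here, and if they do not, the count checks nothing about the deletion. The reason for the higher level with the Jag1ECKO label was not tested. Differences between labels below take the labels as given. Jag1ECKO 1 stood apart, with all 29 cells of a cluster led by dissociation genes and with 3340 CPM of smooth muscle markers against 390 to 1454 CPM elsewhere.

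Arteries and veins differ in the genes their endothelium expresses, and many of these genes are set during development. Notch signalling and SOX factors favour the arterial state, and the nuclear receptor COUP-TFII, encoded by Nr2f2, restrains Notch signalling in veins. Ephrin-B2 (Efnb2) on arterial cells and its receptor EphB4 (Ephb4) on venous cells keep the vessel types apart at contacts. Gja4 and Gja5 encode connexins of arterial gap junctions, Sox17 encodes an arterial transcription factor and Unc5b a netrin receptor. Nrp2 encodes a co-receptor for vascular growth factors and semaphorins of veins and lymphatics, and Emcn encodes endomucin, a sialomucin of venous and capillary endothelium.

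The sequences before the start sites of 5 genes are shown because the joint detection described below turns on them: Nr2f2, Nrp2 and Emcn were detected together more often than expected, and Gja4 and Gja5 less often with Nr2f2 and Nrp2, though near expectation with Emcn. They are the RefSeq promoters on GRCm38.p6, in the direction of transcription and without bases inside annotated exons: Nr2f2 at chr7:70366747-70366996 on the minus strand, Nrp2 at chr1:62703067-62703284 on the plus strand, Emcn at chr3:137340828-137341066 on the plus strand, Gja4 at chr4:127314040-127314289 on the minus strand and Gja5 at chr3:97032152-97032401 on the plus strand. Capitals mark matches to a searched motif.
Nr2f2: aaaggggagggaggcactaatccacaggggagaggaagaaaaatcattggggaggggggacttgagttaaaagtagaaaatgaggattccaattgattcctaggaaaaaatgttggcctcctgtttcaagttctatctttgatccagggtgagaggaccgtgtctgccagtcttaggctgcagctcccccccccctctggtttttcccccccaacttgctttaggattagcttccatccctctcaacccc
Nrp2: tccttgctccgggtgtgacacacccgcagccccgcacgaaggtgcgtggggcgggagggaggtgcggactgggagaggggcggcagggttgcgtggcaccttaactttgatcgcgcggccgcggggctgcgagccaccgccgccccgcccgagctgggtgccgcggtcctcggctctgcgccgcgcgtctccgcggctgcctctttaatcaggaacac
Emcn: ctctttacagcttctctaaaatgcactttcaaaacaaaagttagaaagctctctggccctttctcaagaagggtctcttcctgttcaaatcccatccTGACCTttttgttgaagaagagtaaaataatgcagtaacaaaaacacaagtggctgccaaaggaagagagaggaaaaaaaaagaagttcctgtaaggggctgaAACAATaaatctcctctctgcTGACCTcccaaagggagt
Gja4: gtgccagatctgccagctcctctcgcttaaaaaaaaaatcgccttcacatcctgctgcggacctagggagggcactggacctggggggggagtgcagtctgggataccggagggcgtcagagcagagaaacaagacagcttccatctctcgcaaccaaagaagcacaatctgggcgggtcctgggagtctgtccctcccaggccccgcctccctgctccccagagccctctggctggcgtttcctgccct
Gja5: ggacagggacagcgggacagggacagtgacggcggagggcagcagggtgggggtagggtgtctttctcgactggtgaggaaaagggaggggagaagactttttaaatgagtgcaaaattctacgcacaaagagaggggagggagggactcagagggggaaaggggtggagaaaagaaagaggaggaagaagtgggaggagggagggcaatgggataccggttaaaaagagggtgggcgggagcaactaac

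Motifs of 3 kinds were searched on both strands of the 250 bases before the start: TGGGAA for the Notch effector RBPJ, ATTGTT for SOX factors and AGGTCA for nuclear receptors such as COUP-TFII. Emcn held ATTGTT once on its reverse strand (AACAAT in the printed direction), 50 bases before the start. It also held AGGTCA 2 times on that strand (TGACCT as printed), 153 and 29 bases before the start, and no match overlapped another. These distances run to the start site of the RefSeq window, which lies 11 bases beyond the printed end of Emcn, because those 11 bases are inside an annotated exon. Of 32851 promoters of the same length, 21.6% held TGGGAA, 9.42% held ATTGTT and 14% held AGGTCA. None of these letters occurred in the windows of the other 7 genes with an entry (8 of 9 matched by symbol), which says nothing of the factors themselves.

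Efnb2 and Gja4 had the highest levels of the 9 genes, and Unc5b was the exception among the arterial genes, with a low level. Efnb2 stood at 367 CPM in Jag1ECKO 1, 346 in Jag1ECKO 2, 453 in Jag1ECWT 1 and 460 in Jag1ECWT 2. Gja4, connexin 37, stood at 301, 340, 336 and 342 CPM in the same order. Gja5, connexin 40, stood at 186, 107, 151 and 175 CPM, lowest in Jag1ECKO 2. The highest library exceeded the lowest by 1.14 times for Gja4 and 1.74 times for Gja5, and by values between these for the other 3. Sox17 stood at 177, 144, 200 and 169 CPM. Unc5b, the lowest of the arterial genes, stood at 43.3, 47.2, 32.6 and 38.9 CPM.

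Of the venous genes, Nr2f2, Ephb4 and Nrp2 differed between libraries by more than any arterial gene, and Emcn by 1.63 times. Nr2f2 stood at 106 CPM in Jag1ECKO 1, 69.7 in Jag1ECKO 2, 16.3 in Jag1ECWT 1 and 22.1 in Jag1ECWT 2, a range of 6.52 times. Nrp2 stood at 50.2, 9.56, 19.8 and 4.02 CPM, a range of 12.5 times that crossed the labels. Ephb4 stood at 132, 37.7, 104 and 80.4 CPM, with Jag1ECKO 1 highest and Jag1ECKO 2 lowest. Emcn stood at 224, 157, 137 and 163 CPM. Only Nr2f2 among the venous genes had both libraries of one label above both of the other.

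By mean level over the 4 libraries the order was Efnb2 (406 ± 58.2 CPM, SD, n = 4), Gja4 (330 ± 19.4), Sox17 (173 ± 23.0), Emcn (170 ± 37.6), Gja5 (155 ± 35.1), Ephb4 (88.4 ± 39.8), Nr2f2 (53.6 ± 42.5), Unc5b (40.5 ± 6.28) and Nrp2 (20.9 ± 20.6). Because SORT-seq counts 1 end per transcript, these CPM need no division by length, although genes can differ in how well their end is captured. Every library of Efnb2 was above every library of Gja4, and every library of Gja4 was above every library of the other 7 genes. Below Gja4 the libraries of each gene overlapped those of its neighbour in this order. Over all 18508 genes with a count, Efnb2 ranked 301 by summed counts and Nrp2 ranked 7074.

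**Figure D1:**
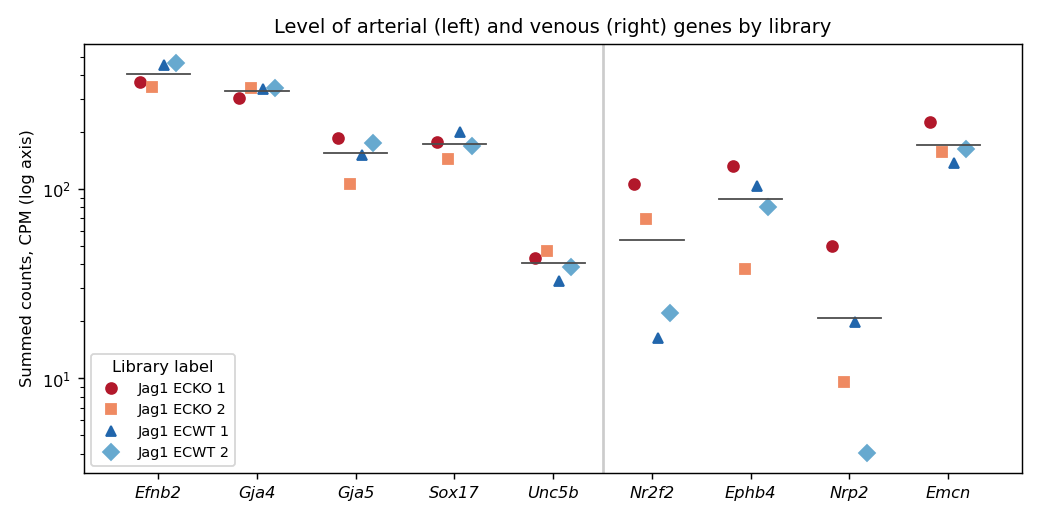
Level of the 9 genes in each library, as summed counts in CPM on a log axis, with arterial genes on the left and venous genes on the right. Points are the 4 libraries and lines are their means, and the points of Nr2f2 and Nrp2 spread over 6.52 and 12.5 times, against 1.14 times for Gja4.

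Shares of cells with a count were compared after every cell was thinned to 2837 counts, which left 742 cells and 82 too shallow. Efnb2 was detected in 61.3% of thinned cells (mean of 4 libraries, ± 5.07 SD) and in 77.7% of unthinned cells. Gja4 was detected in 54.2% ± 5.32 (67.8% unthinned), Sox17 in 35.8% ± 7.17 (50.8%) and Gja5 in 32.2% ± 4.91 (49.6%). These 4 genes were the most widely detected of the 9. Unc5b was detected in 9.26% ± 2.0 (16.4%). Among venous genes Emcn was detected in 25.2% ± 3.17 (34.0%) and Ephb4 in 23.0% ± 8.48 (35.6%). Nr2f2 was detected in 6.72% ± 2.78 (8.62%) and Nrp2 in 3.87% ± 3.29 (4.73%). By library, the thinned share of Nr2f2 was 9.64% (exact binomial 95% interval 5.61 to 15.2), 8.52% (5.21 to 13.0), 4.72% (1.75 to 10) and 3.98% (1.84 to 7.42), intervals that cover counting error only and overlap.

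Equal levels hid unequal spread over cells. Sox17 and Emcn had nearly the same mean level, but the variance of thinned counts over their mean was 1.43 for Sox17 and 2.32 for Emcn. This ratio, which is 1 for counts scattered by chance alone, was 3.63 for Nr2f2 and 1.90 for Nrp2 and lay between 1.15 and 1.52 for the other 6 genes. Had the 279 counts of Nr2f2 been spread over cells in proportion to their depth, 27.4% of cells would have held one, against 8.62% observed. For Ephb4 the same comparison gave 36.9% and 35.6%, so its counts were close to evenly spread. Ephb4 reached at most 4 counts in a cell, whereas Nr2f2 reached 20 and Emcn 29.

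The counts of Nr2f2 and Nrp2 came largely from a small group of cells. Clustering gave 14 clusters, of which 13 kept EC markers (794 cells) and 1 of 30 cells was stromal, with 15 of 16 markers of fibroblasts and of vascular smooth muscle cells (VSMC) raised. The EC-like cluster with the highest Nr2f2 level held 32 cells and was led by Lrg1, Fabp4, Pde2a, Nr2f2 and Cd36. Nr2f2, Nrp2, Emcn and Unc5b were among the 2000 variable genes used in clustering, so the levels by cluster describe the clusters and test nothing. The 14 clusters needed a resolution of 2.3. At the default of 0.8 there were 9, and the one with the highest Nr2f2 level (678 CPM) held 48 cells, 31 of these 32 among them. The cluster raised 7 genes of the capillary list, 2 of the venous list and 3 of the lymphatic list by 3 times or more over other cells, so it is called here by its leading genes, the Lrg1/Fabp4 cluster. It took 18 cells (8.91%) of Jag1ECKO 1, 9 (3.81%) of Jag1ECKO 2, 3 (2.14%) of Jag1ECWT 1 and 2 (0.813%) of Jag1ECWT 2.

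In the Lrg1/Fabp4 cluster Nr2f2 reached 887 CPM, against 8.31 CPM in the other 762 EC-like cells. Nrp2 reached 412 against 3.41 CPM, Emcn 954 against 146 CPM and Ephb4 215 against 76.7 CPM. All 4 venous genes were thus higher there. Arterial genes were lower, with Efnb2 at 147 against 429 CPM, Gja4 at 39.5 against 360 CPM and Gja5 at 11.3 against 163 CPM. Sox17 stood at 39.5 against 180 CPM and Unc5b at 11.3 against 35.2 CPM. Of the 32 cells, 31 had a count of Emcn, 27 of Nr2f2, 22 of Nrp2 and 22 of Ephb4, and 20 had both Nr2f2 and Nrp2. Efnb2 was found in 13 of them, Gja4 in 7, Sox17 in 5, and Gja5 and Unc5b in 2 each.

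Lymphatic endothelium also carries Nr2f2 and Nrp2, so its genes were read in the same 32 cells. Prox1, the transcription factor that sets lymphatic identity, had 1 count in 1 cell. Lyve1, a hyaluronan receptor, was in 3 cells with 51 counts, of which 31 were in 1 cell. Pdpn, Reln and Nts were in 2 cells each, and 2 of the 32 cells held 3 or more genes of the lymphatic list, against 1 of 762 other EC-like cells.

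The stromal cluster held much of the remaining Nr2f2. Its level there was 299.9 CPM, in 21 of 30 cells, while Nrp2 stood at 7.23 CPM and Emcn at 50.6 CPM. Among its 13 cells with more VSMC than fibroblast counts Nr2f2 reached 433 CPM and was in 10 cells, and Emcn was in 0 of 13, which allows up to 24.7% of such cells by the exact interval. Among its 17 cells with more fibroblast counts Nr2f2 stood at 157 CPM, and Unc5b reached 337 CPM in 10 cells. With all libraries pooled, Unc5b stood at 170 CPM in stromal cells and at 35.2 CPM in the other EC-like cells. Of its 47 stromal counts 42 came from Jag1ECKO 2, where it stood at 299 against 25.98 CPM. In Jag1ECWT 1 it stood at 62.2 against 32.5 CPM, from 1 stromal count. In Jag1ECKO 1 and Jag1ECWT 2 it was lower in stromal cells, at 44.9 against 46.7 CPM and 18.7 against 39.97 CPM. The other arterial genes in stromal cells stood at 8.88% (Gja5) to 21.1% (Efnb2) of their level in the other EC-like cells, against a median of 18.4% (0 to 57.3%) for the 10 EC markers.

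Of 71 cells with a count of Nr2f2, 27 were in the Lrg1/Fabp4 cluster, 21 in the stromal cluster and 23 among the other 762 EC-like cells (3.02%). Of 39 cells with Nrp2, 22 were in the Lrg1/Fabp4 cluster, 2 in the stromal cluster and 15 elsewhere. Emcn was spread more widely, with 243 of its 280 cells among the other EC-like cells. Of 409 cells with Gja5, 403 were among the other EC-like cells and 2 in the Lrg1/Fabp4 cluster.

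Among the other EC-like clusters, a pair had Emcn above the 35.4 to 226 CPM of the rest. A cluster of 17 cells led by Gpihbp1 and Cd36 had Emcn and Sox17 at 535 CPM each and Nr2f2 at 116 CPM. A cluster of 88 cells led by Sfrp2 and Thbs1, 55 of them from Jag1ECWT 2, had Emcn at 490 CPM together with Efnb2 at 697 CPM, the highest Efnb2 level of the 14 clusters. High Emcn was therefore measured both with low and with high Efnb2.

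**Figure D2:**
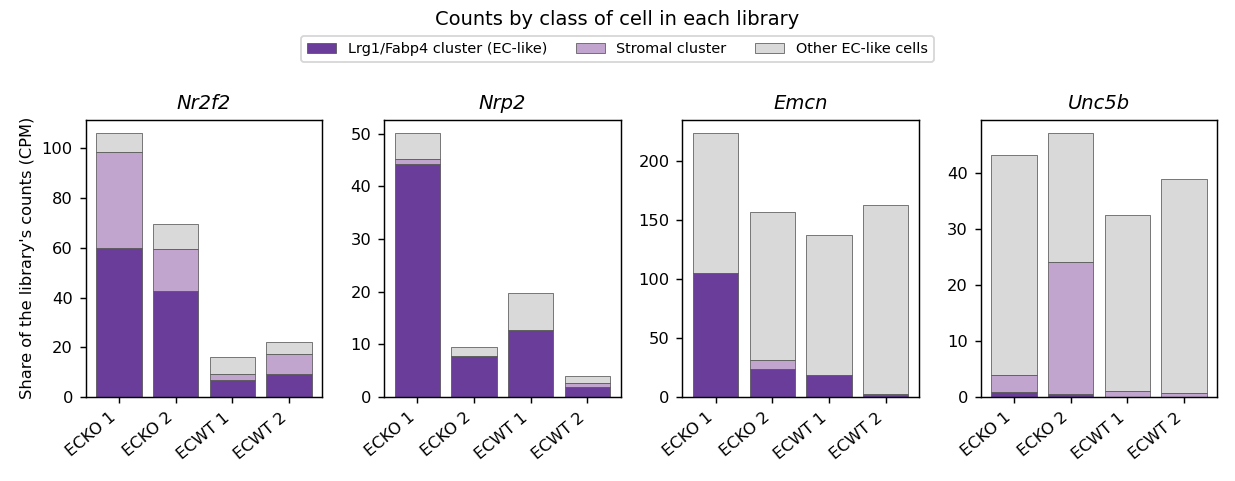
Counts of Nr2f2, Nrp2, Emcn and Unc5b in each library, in CPM of the whole library, divided by the class of cell they came from. The Lrg1/Fabp4 cluster and the stromal cluster hold most of Nr2f2, and other EC-like cells add 4.69 to 10.1 CPM of it in each library.

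Mutual exclusion was read as co-detection: the number of thinned cells with counts of both genes over the number expected from the product of their shares in each library. All 36 pairs were computed, without a test because cells of a library are not replicates. Nr2f2 and Nrp2 were found together in 15 cells against 2.09 expected, a ratio of 7.17 (4.23 to 12.6 by library). Nr2f2 with Emcn gave 27 against 13.1 cells (2.07) and Nrp2 with Emcn 18 against 6.91 cells (2.61), both above 1 in 3 of 4 libraries. Nr2f2 was below expectation with 4 arterial genes, at ratios of 0.505 with Efnb2, 0.474 with Gja4, 0.378 with Gja5 and 0.468 with Sox17. The ratio was below 1 in all 4 libraries for Efnb2 and Gja4 and in 3 of 4 for Gja5 and Sox17. Leaving out 1 library in turn gave 0.367 to 0.635 with Efnb2, 0.236 to 0.587 with Gja4, 0.288 to 0.613 with Gja5 and 0.350 to 0.557 with Sox17. With Unc5b the ratio was 1.03, and 0.336 without Jag1ECKO 2. Nrp2 and Gja5 were together in 1 cell against 8.90 expected (0.112), the lowest ratio of the 36 in thinned cells, and leaving out 1 library in turn gave 0 to 0.138. In unthinned cells the pair was together in 7 cells against 19.2 expected (0.364), below 1 in 4 of 4 libraries, and the lowest ratio was then that of Nrp2 with Unc5b (0.315).

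Ephb4 and Emcn did not share this pattern. Ephb4 and Gja5 were together in 62 cells against 53.7 expected, a ratio of 1.16 that was above 1 in 4 of 4 libraries, and Ephb4 with its ligand Efnb2 gave 0.844, below 1 in 4 of 4. In unthinned cells Ephb4 with Gja5 gave 1.13, above 1 in 4 of 4, but Ephb4 with Efnb2 turned to 1.03, above 1 in 3 of 4. Emcn with the 5 arterial genes gave 0.866 to 1.15. Over the 20 arterial with venous pairs the median ratio was 0.830 and 5 were above 1 (0.973 and 7 in unthinned cells). Within the arterial genes the median of 10 pairs was 1.04, and within the venous genes the median of 6 pairs was 1.76.

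Outside the Lrg1/Fabp4 and stromal clusters the arterial with venous median was 1.01, with 12 of 20 pairs above 1, and Nr2f2 and Nrp2 were together in 0 cells against 0.169 expected. These cells were set apart after the values had been seen. Nr2f2 with Efnb2, Gja4, Gja5 and Sox17 gave 0.864 to 1.02 there. Nrp2 with Gja5 was still low, with 1 cell against 2.85 expected (0.351), while Nrp2 with the other arterial genes gave 1.14 to 1.59.

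**Figure D3:**
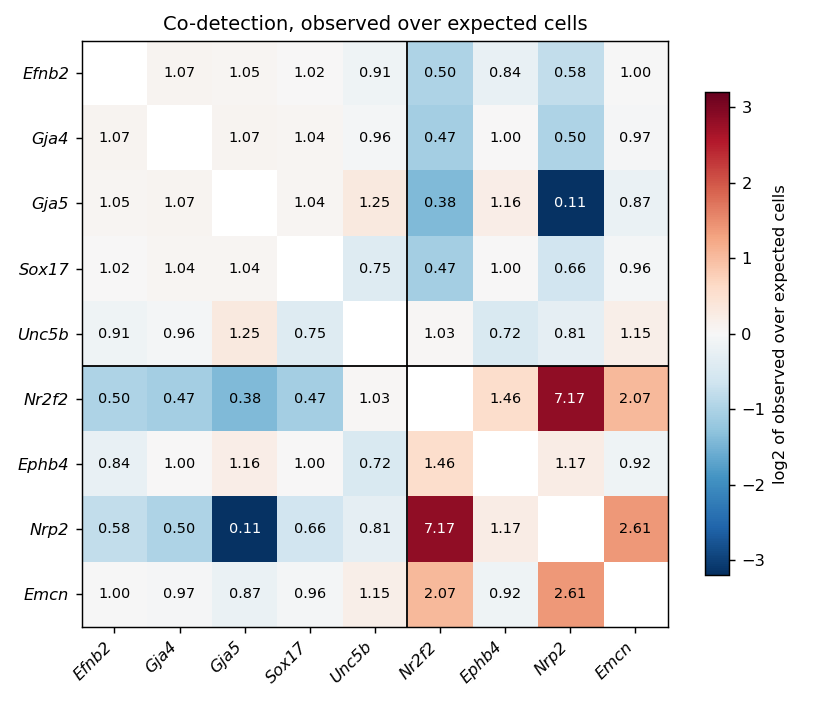
Observed over expected number of thinned cells with counts of both genes, for all 36 pairs, with colour on a log2 scale and lines between arterial and venous genes. Nr2f2 with Nrp2 gives 7.17, Nrp2 with Gja5 gives 0.11, and the rows of Ephb4 and Emcn range from 0.72 to 1.16 against arterial genes.

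Arterial genes were also counted per cell. In thinned cells of the Lrg1/Fabp4 cluster 15 of 25 (60%) had no arterial gene and the mean was 0.480 of 5. In the other EC-like cells 40 of 688 (5.81%) had none and the mean was 2.02, and in stromal cells 14 of 29 (48.3%) had none. Cells with Nr2f2 or Nrp2 had no arterial gene in 61.9%, 25%, 20% and 40% of cells of Jag1ECKO 1, Jag1ECKO 2, Jag1ECWT 1 and Jag1ECWT 2, from 21, 20, 10 and 10 cells. Cells with neither had none in 4.83%, 7.88%, 5.98% and 6.94%, so the 2 kinds of cell did not overlap between libraries.

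Cells with a count of Nr2f2 were then set against cells without, within each library. After thinning there were 16, 19, 6 and 9 positive cells in the 4 libraries, of which 21 were in the Lrg1/Fabp4 cluster and 13 in the stromal cluster. Efnb2 was found in 12.5%, 42.1%, 16.7% and 44.4% of positive cells and in 62.7%, 57.4%, 68.6% and 65.9% of negative cells, lower in 4 of 4 libraries. Gja4 was found in 12.5%, 47.4%, 0% (0 of 6 cells, which allows up to 45.9% by the exact interval) and 22.2% of positive cells against 58.7%, 55.9%, 49.6% and 61.8% of negative cells. Gja5 was found in 0% (0 of 16 cells, up to 20.6%), 10.5%, 33.3% and 22.2% against 42%, 27.5%, 33.1% and 32.3%. Among positive cells, Gja4 was least frequent in Jag1ECWT 1 and Gja5 in Jag1ECKO 1.

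Sox17 was found in 12.5%, 10.5%, 50% and 11.1% of positive cells against 34.7%, 35.3%, 46.3% and 31.8% of negative cells, with Jag1ECWT 1 the exception. Nrp2 was found in 56.2%, 21.1%, 16.7% and 11.1% against 3.33%, 0.490%, 3.31% and 0.461%, higher in 4 of 4 libraries. Emcn was found in 68.8%, 52.6%, 83.3% and 11.1% against 24.7%, 23.5%, 18.2% and 25.3%. In Jag1ECWT 2 Emcn was thus less frequent in positive cells, and only 2 of its 9 positive cells came from the Lrg1/Fabp4 cluster. The mean difference in share was -34.7 ± 19.1 percentage points (SD, n = 4) for Efnb2, -35.9 ± 18.8 for Gja4, -17.2 ± 18.0 for Gja5, -16.0 ± 13.2 for Sox17, 0.180 ± 13.1 for Unc5b, 15 ± 12.3 for Ephb4, 24.4 ± 19.5 for Nrp2 and 31.0 ± 33.6 for Emcn. Single libraries moved some of these means. Without Jag1ECKO 1 the difference was -8.90 for Gja5 and 14.9 for Nrp2, and without Jag1ECWT 1 it was 19.7 for Emcn, and that of Unc5b ranged from -3.84 to 4.02 with 1 library left out.

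**Figure D4:**
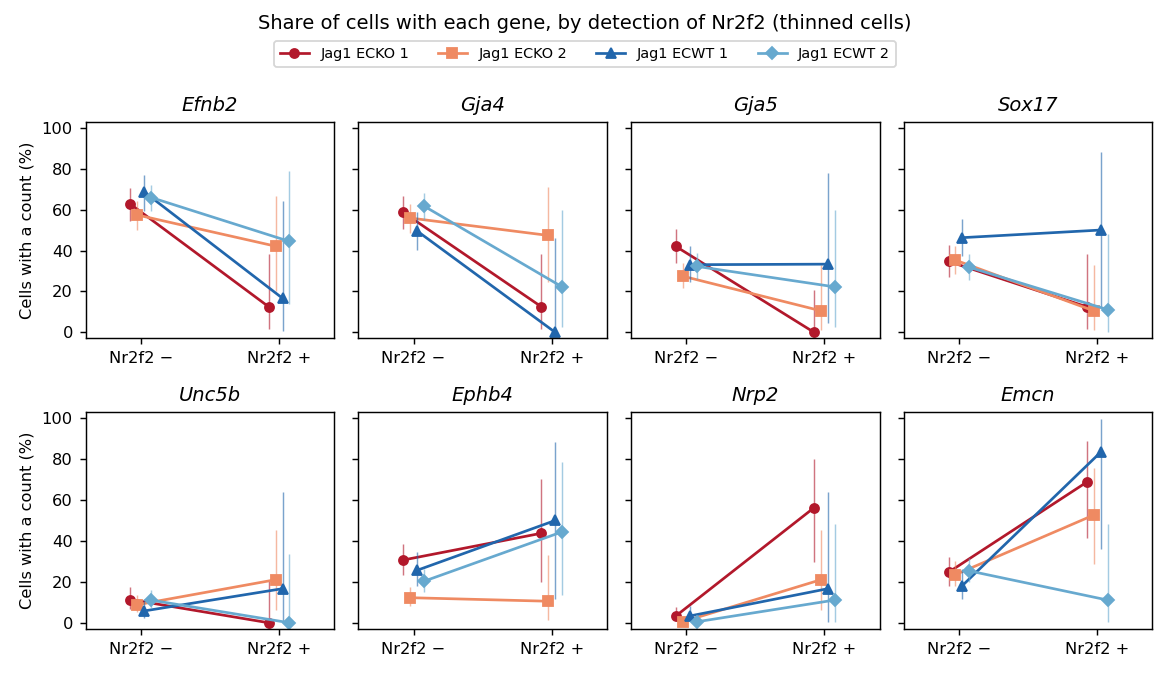
Share of thinned cells with a count of each gene, in cells without (left) and with (right) a count of Nr2f2, with exact binomial 95% intervals. Lines join the 2 shares of a library, and those of Efnb2 and Gja4 are lower on the right in 4 of 4 libraries while those of Nrp2 are higher in 4 of 4.

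Counts were summed per library over positive and negative cells and fitted by edgeR with the library as a block. On the log2 scale the difference of positive from negative cells was -1.39 (SE 0.34) for Efnb2, -1.89 (SE 0.39) for Gja4, -2.02 (SE 0.57) for Gja5 and -0.99 (SE 0.44) for Sox17. It was 4.37 (SE 0.75) for Nrp2, 1.35 (SE 0.33) for Emcn, 0.71 (SE 0.44) for Ephb4 and 0.72 (SE 0.67) for Unc5b. Of these 8, Nrp2 and Emcn passed an adjusted p of 0.05 upward and Efnb2, Gja4 and Gja5 downward, where 2.12% and 2.44% of 4954 genes passed in these directions. The genes were chosen with this pattern in view, so nothing is read from that count. Without Jag1ECKO 1, which gave 16 of 50 positive cells, Efnb2, Gja5 and Emcn no longer passed, and 91 genes were called in place of 226. Their differences without that library were -1.04, -1.25 and 1.15. Without Jag1ECWT 1 Efnb2 and Emcn did not pass, and without Jag1ECKO 2 Gja5 did not. In DESeq2 only Gja4 (-2.06) and Nrp2 of the 5 passed.

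Lists of related genes were read in the same fit. These lists were chosen with earlier results of these data known, and Fabp4, Cd36 and Lrg1 also lead the cluster with high Nr2f2, so their tests are not independent evidence of the pattern. Of 23 listed arterial genes 15 were tested and 4 were lower in Nr2f2-positive cells, with a list median of -0.87 against -0.14 over all genes tested. They were Hey2, a Notch target (log2 difference -2.79, adjusted p = 0.000337), the kinase Bmx (-1.78, adjusted p = 2.97e-05), Sox18 (-1.44, adjusted p = 0.0415) and Fbln5, an elastic fibre protein (-0.99, adjusted p = 0.0163). The first 3 were lower in 4 of 4 libraries and Fbln5 in 3 of 4, and no gene of the list passed upward. Hes1, another Notch target, stood at 0.48 (SE 0.62), Cxcl12 at 0.25 and Efna1 at 0.15, and they did not pass. All 4 lost their call in DESeq2, and without Jag1ECKO 1, where Hey2 stood at -2.20 (adjusted p = 0.0570) and Bmx at -1.23 (adjusted p = 0.0613). Sox18 also lost it without each of the other libraries. Jag1 stood at -1.0 (SE 0.60) and did not pass.

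On the venous list Lrg1 (4.37, adjusted p = 5.06e-22) and the caveolar diaphragm gene Plvap (2.07, adjusted p = 5.73e-16) were higher, each in 4 of 4 libraries, and both also passed in DESeq2 and without Jag1ECKO 1. Of 7 tested capillary genes 6 were higher, with a list median of 3.22. They included the fatty acid transporter gene Cd36 (3.32, adjusted p = 5.73e-16), the fatty acid binding protein gene Fabp4 (3.23, adjusted p = 1.73e-31) and the VEGF receptor gene Kdr (3.22, adjusted p = 0.00648), with Fabp5, Cd300lg and the homeobox gene Meox2. Cd36, Fabp4 and Kdr also passed in DESeq2 and without each library in turn. None of the lymphatic genes had enough counts to be tested.

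Of 10 tested partners of the 9 genes, Robo4, an endothelial receptor reported to bind UNC5B, was higher (3.32, adjusted p = 7.76e-07) and Sox18, which is also on the arterial list, was lower. Stromal markers moved with the same split: 6 of 6 VSMC, 4 of 7 fibroblast and 2 of 2 pericyte markers were higher, and of the dissociation genes Fos and Egr1 were higher. Acta2, Tagln, Mylk and Dcn were higher in 4 of 4 libraries and Myh11 (3.14) in 3. Rgs5 (5.60, 38 against 6 counts) was higher in 2 libraries and lower in 1, and Col1a1 was higher in 2 and lower in 2. Of 9 tested EC markers, Pecam1, which encodes the sorted antigen CD31 (-1.10, adjusted p = 2.59e-05), and the angiopoietin receptor gene Tek (-1.02, adjusted p = 0.0144) were lower in 4 of 4 libraries and Kdr was higher, with a list median of -0.19. The split was therefore repeated in EC-like cells only, with 11, 15, 5 and 6 positive cells.

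In EC-like cells the fits called 54 genes higher (1.06%) and 117 lower (2.29%) of 5116. Efnb2 stood at -1.27 (SE 0.38), Gja4 at -1.77 (SE 0.43), Gja5 at -2.03 (SE 0.65), Sox17 at -0.74 (SE 0.47), Ephb4 at 0.88 (SE 0.49), Nrp2 at 4.70 (SE 0.70) and Emcn at 1.57 (SE 0.36), and the 5 genes that passed among all cells passed again, while Unc5b had too few counts. Hey2 (-3.51, adjusted p = 0.000596), Bmx (-1.69, adjusted p = 0.000901) and Fbln5 (-1.11, adjusted p = 0.0225) were lower, Sox18 lost its call (-1.22, adjusted p = 0.193), and Lrg1, Plvap and the 6 capillary genes were higher. Fibroblast markers had a median of -1.45 over 4 tested and dissociation genes of -0.038 over 13, against -0.25 over all genes. Among EC markers Pecam1 was again lower (-1.16, adjusted p = 8.6e-05, in 4 of 4 libraries), Tek stood at -0.86 (adjusted p = 0.132), and the median of 10 was 0.023. Of 3 tested VSMC genes, Tagln (1.49, adjusted p = 0.0450) and Mylk (2.25, adjusted p = 0.00137) were higher and Acta2 stood at -0.58 (adjusted p = 0.625), lower in 2 of 4 libraries. The part of these markers in the result was not tested. In EC-like cells outside the Lrg1/Fabp4 cluster, with 1, 8, 3 and 4 positive cells, 3 genes were called, among them Cd36 (2.80) and none of the 9. There Efnb2 stood at -0.65 (SE 0.60), Gja4 at -1.46 (SE 0.69), Gja5 at -1.09 (SE 0.82), Sox17 at -0.019 (SE 0.65), Ephb4 at 0.61 (SE 0.75) and Emcn at 0.24 (SE 0.70), and Nrp2 and Unc5b had too few counts.

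The largest differences with the same sign in 4 of 4 libraries in all cells were in Meox2 (5.59), Nov (4.5), Lrg1 (4.37), Nrp2 (4.37) and Igf1 (3.8) upward, followed by Ogn, Hmcn1, Xdh, C1qtnf9 and Pde2a. Downward, Adra2a, an adrenergic receptor gene, had 0 counts in positive cells and 206 in negative cells, so it was at least 4.96-fold lower against a floor of 3 counts over the positive cells. Frrs1, with 0 and 146 counts, was at least 3.52-fold lower. Lox, which crosslinks collagen and elastin, had 1 and 173 counts. The rest of the 10 largest (Col4a3, Ccnyl1, Apba1, Cadm1, Elp3, Nova1 and H2-DMa) also had 0 counts in positive cells.

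The same split was made by Gja5, the arterial gene with the lowest co-detection with Nrp2 in thinned cells, with 63, 58, 42 and 72 positive cells. Nr2f2 stood at 0, 12.2, 25.2 and 14.7 CPM in Gja5-positive cells and at 99.2, 105, 29.0 and 36.6 CPM in Gja5-negative cells, lower in 4 of 4 libraries but close in Jag1ECWT 1. Its log2 difference was -2.43 (SE 0.48), and it alone of 7 tested identity genes passed, where 0.486% of 4735 genes passed downward and 0.0422% upward. Both genes were chosen with these results known and the split restates their low co-detection, so nothing is read from that pass. Emcn stood at -0.45 (SE 0.20) and Ephb4 at 0.37 (SE 0.23). The other arterial genes differed little, with Efnb2 at 0.029 (SE 0.13), Gja4 at 0.12 (SE 0.14), Sox17 at 0.057 (SE 0.18) and Unc5b at 0.24 (SE 0.39), and Nrp2 had too few counts to be tested. The differences of these 4 arterial genes were each within 1 SE of 0.

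Beyond the set, Klk10, a kallikrein-related gene (0.66, adjusted p = 0.00681), and the tight junction gene Cldn5 (0.59, adjusted p = 0.00343) were higher in Gja5-positive cells in 4 of 4 libraries. The arterial list had a median of -0.050 over 15 tested genes, against 0.0067 over all genes. Lrg1 (-3.02, adjusted p = 4.47e-07) and Cd36 (-2.29, adjusted p = 2.29e-07) were lower in 4 of 4 libraries. So were Slc6a6, Sparcl1, Coch, Prelp, Igfbp7 and the collagen genes Col1a1 and Col3a1, and 5 of 5 tested VSMC markers were lower too. In EC-like cells alone 8 genes were lower (0.17%) and 0 higher (0%) of 4706, with 267 at an unadjusted p below 0.05. Nr2f2 (-2.39), Lrg1 (-3.10) and Cd36 (-2.37) were among the 8, and the medians of 4 VSMC and 4 fibroblast markers were -0.28 and -0.17. DESeq2 called 1 gene in this split and not Nr2f2 (-2.33), Lrg1 or Cd36. Without Jag1ECKO 1 edgeR called 9 genes in place of 25, and with either Jag1ECKO library left out Nr2f2 had too few counts to be tested.

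Between the genotype labels no gene passed. Counts summed per library gave 0 calls of 9730 genes in edgeR (0%), with 465 at an unadjusted p below 0.05, and 0 in DESeq2 (159 unadjusted) and limma (491 unadjusted). An exact permutation test of 2 libraries against 2 cannot go below p = 0.333. The log2 difference of libraries labelled Jag1ECKO from those labelled Jag1ECWT was 2.14 (SE 0.30) for Nr2f2, 1.4 (SE 0.85) for Nrp2, 0.35 (SE 0.26) for Unc5b and 0.34 (SE 0.21) for Emcn. It was -0.34 (SE 0.16) for Efnb2, -0.18 (SE 0.18) for Sox17, -0.17 (SE 0.25) for Gja5, -0.16 (SE 0.46) for Ephb4 and -0.059 (SE 0.18) for Gja4. None of the 9 passed after adjustment over all genes. The value of Nr2f2 was smaller where each cell weighed more evenly, at 1.32 (SE 0.35) in thinned cells and 1.38 (SE 0.24) in limma on mean per-cell CPM. Without a filter on low counts it stood at 2.15 and passed, where 127 genes were called.

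The 2 libraries of each label did not overlap for Nr2f2 and Unc5b, which were higher with the Jag1ECKO label, and for Efnb2, which was lower. Over all genes tested, 16% were non-overlapping upward and 19.4% downward, so 2 and 1 of 9 are near that background. Leaving out 1 library changed calls. Without Jag1ECKO 1, 1.82% of genes were called, among them Nr2f2 (1.87) and Ephb4 (-1.20), and Nrp2 stood at -0.072. Without Jag1ECKO 2, 4.23% were called, among them Nr2f2 (2.38) and Nrp2 (2.25), and Ephb4 turned to 0.51. In both fits the lone library was assumed to vary like the others. Without Jag1ECWT 1 or Jag1ECWT 2, 0 genes were called (221 and 280 at an unadjusted p below 0.05), and Nr2f2 stood at 1.95 and 2.47. Ephb4 and Nrp2 thus took their direction from which Jag1ECKO library was used.

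The classes of cell moved with the labels too. The Lrg1/Fabp4 cluster added 60.0, 42.7, 6.98 and 9.38 CPM of Nr2f2 to the 4 libraries in order, the stromal cluster 38.4, 16.9, 2.33 and 8.04 CPM and all other EC-like cells 7.87, 10.1, 6.98 and 4.69 CPM. In those other EC-like cells alone the difference of Nr2f2 between labels was 0.87 (SE 0.57), below its value over all cells. Emcn stood at -0.028 and Unc5b at -0.055 there, where both had been positive over all cells. For Nrp2 the Lrg1/Fabp4 cluster added 44.3, 7.87, 12.8 and 2.01 CPM, which was most of it in Jag1ECKO 1, Jag1ECKO 2 and Jag1ECWT 1. How many such cells a library caught and the genotype label cannot be told apart with 2 libraries a label.

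**Figure D5:**
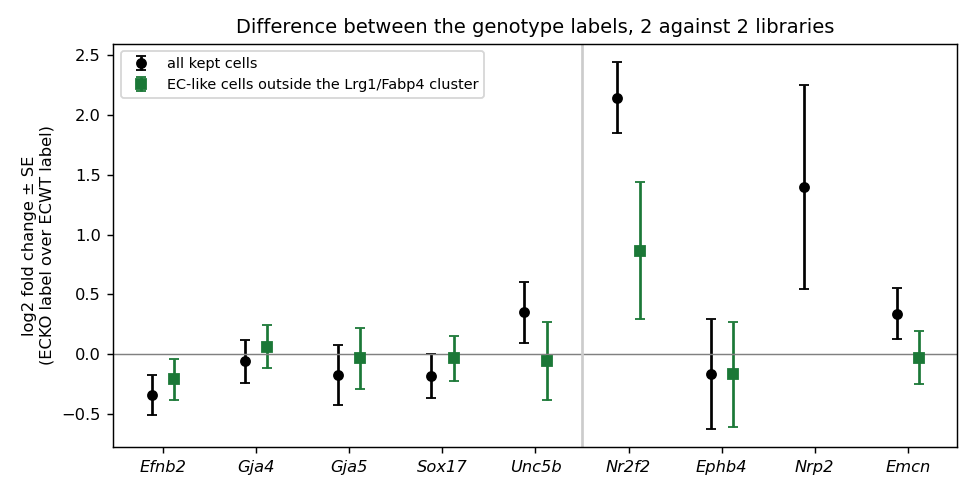
Log2 difference between libraries labelled Jag1ECKO and Jag1ECWT for the 9 genes, with standard errors, over all kept cells and over EC-like cells outside the Lrg1/Fabp4 cluster. Nr2f2 moves from 2.14 to 0.87 and Emcn from 0.34 to -0.028, and Nrp2 had too few counts for the second fit.

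Lists around the set were read in the same label fit. The 19 tested arterial genes had a median of -0.13, against -0.0010 over all genes. The median of 9 capillary genes was 0.82, of 9 venous genes 0.032, of 8 VSMC markers 1.68, of 8 fibroblast markers 0.44 and of 16 dissociation genes 0.62. Of 4 pericyte markers 2 were tested, Rgs5 (7.11, SE 1.4, adjusted p = 0.428) and Cspg4 (1.97, SE 0.61, adjusted p = 0.900), and the summed level of the 4 was 192, 56.2, 8.15 and 18.1 CPM in the libraries in order, with 1033 CPM in the stromal cluster. In EC-like cells alone, without the stromal cluster, the difference of Nr2f2 between labels was 2.16 (SE 0.28), close to its value over all cells. Over all kept cells Lrg1 stood at 1.85, Fabp4 at 1.53 and Cd36 at 1.51, genes that lead the cluster with high Nr2f2.

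Correlation over cells was computed within each library and averaged, over 7575 genes with a count in at least 5% of cells of every library. Points share library, depth and sparse counts, so the values are a description. The gene most like Nrp2 was Nr2f2 (mean r 0.560, 0.491 to 0.600 by library, n = 824 cells), and Prss23 (0.356) was also among the 3 highest. Among the 3 most like Nr2f2 were Fabp4 (0.437) and the VSMC gene Mylk (0.387). Emcn was most like Fmo1 (0.357), Fmo2 (0.315) and Ctla2a (0.306).

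The other genes had other neighbours. Efnb2 was most like Bmp4 (0.347), Thbs1 (0.308) and Sfrp1 (0.295), and Gja4 was like Sfrp1 (0.291) and Ptprb (0.253), both among its 3 highest. For Gja5 the highest was Klk10 (0.205), for Unc5b Lrp1 (0.201), for Sox17 Igf2 (0.191) and for the venous gene Ephb4 Lfng (0.162), the lowest of these highest values. After thinning, Bmp4, Sfrp1 (for Gja4), Klk10, Fabp4, Lfng, Fmo1 and Fmo2 were again among the 3 highest and the other named genes were not, Nr2f2 being under 5% of cells in some libraries by then. No arterial gene of the set was among the 3 most like another arterial gene.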

How the data were processed

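CD31-sorted aortic cells of 4 libraries were profiled by SORT-seq. The authors aligned reads to GRCm38 with STAR (version not given in the sources used here) and deposited estimated counts per gene and cell, which are UMI numbers corrected for chance repeats, without normalization. These estimated counts were rounded to whole numbers. The study's methods ask for more than 1200 genes per cell and limit spike-in reads, and state 991 cells after quality control. The deposited matrix also holds 991 cells, and 824 of them had more than 1200 genes with a deposited value above 0. These were kept and 167 left out, so the cells may differ from those the study analysed. No column was without a library (0 unmapped).

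The 9 genes and all lists were chosen with earlier results of these data known. Genes named are the 9, list members, Jag1, the 3 most correlated with each of the 9 among genes detected in 5% of cells of every library, and in each split the 10 largest called differences each way with 1 sign in 4 of 4 libraries. Positive cells had at least 1 count after thinning to 2837 counts (the 10th percentile of cells). Sums per library were tested with edgeR 4.0.16 (TMM, filterByExpr, quasi-likelihood test, Benjamini-Hochberg adjustment over all genes, threshold 0.05) in R 4.3.3, with the library as a block for splits of cells. DESeq2 1.42.0 and limma 3.58.1 were alternatives. Clusters came from Seurat 5.3.0 (2000 variable genes, 12 components, and resolution 2.3, the lowest tried that gave 14 clusters, the study's number, against 9 at the default 0.8). A cluster was stromal with 6 or more of 16 fibroblast and VSMC markers at 3 times other cells, and EC-like with 7 or more of 10 EC markers above 0.333 of their mean. No doublet caller was run. Some genes that the rule names are not reported here. Gene lists held 23 arterial, 13 venous, 14 capillary, 8 lymphatic, 23 partner and 16 dissociation genes. Tested on artificial counts, the label fit found 33% of genes with a log2 change of 1 and 99% with a change of 2 (9666 genes), and the Nr2f2 fit found 30% and 80% (4856 genes). The changed genes were drawn from the 2000 with the most counts, and the dispersion was set at 0.05 and not taken from the data. These shares therefore do not cover genes with fewer counts or more spread. By summed counts Nr2f2 ranked 3032, Unc5b 3895 and Nrp2 7074.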

Additional observations from a re-analysis of the deposited data

How the results depend on the processing

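No paired analysis was possible because no pairing of the libraries is given in the labels. Between labels, 0 genes were called in edgeR, and 127 without a filter on low counts and 0 to 417 when 1 library was left out. By Nr2f2, 226 genes were called, against 576 without thinning, 124 by DESeq2, 126 without the library block, 3 in EC-like cells outside the Lrg1/Fabp4 cluster (chosen after seeing the data) and 91 to 192 without 1 library. By Gja5, 25 were called, against 94 without thinning, 1 by DESeq2, 8 in EC-like cells, 0 without the library block (120 at an unadjusted p below 0.05), 2 outside the Lrg1/Fabp4 cluster and 9 to 26 without 1 library. The balance of the Nr2f2 split also moved: 105 genes were higher and 121 lower as reported, 128 and 84 by total counts, which moved the median of all genes from -0.14 to 0.033, and 90 and 34 by DESeq2, which also changed the test and the filter (7357 genes tested against 4954), with a median of 0.51. The causes were not tested.

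Some differences turned sign. Between labels, Gja4 turned to 0.068 without Jag1ECKO 1, to 0.068 in thinned cells, to 0.016 in limma and to 0.062 outside the Lrg1/Fabp4 cluster. Emcn turned to -0.028 and Unc5b to -0.055 outside that cluster, and Unc5b to -0.10 in EC-like cells. Leaving out 1 library gave -1.20 to 0.51 for Ephb4, -0.56 to 0.14 for Gja5, -0.21 to 0.068 for Gja4 and -0.072 to 2.74 for Nrp2. In the Gja5 split Efnb2 turned to -0.022 without the filter, -0.044 in EC-like cells, -0.11 outside the cluster and -0.075 without Jag1ECWT 1 (-0.075 to 0.068 without 1 library). Gja4 turned to -0.021 and Plvap to 0.10 outside the cluster. Sox17 turned to -0.13 without thinning, -0.063 outside the cluster and -0.016 without Jag1ECKO 1 (-0.016 to 0.097), and Unc5b to -0.21 without thinning. Of 64 alternatives of the 8 differences in share between Nr2f2-positive and Nr2f2-negative cells, 63 stayed within 1 SD, which was as large as the mean for some genes, and Ephb4 turned to -3.25 percentage points when cells were thinned to the 25th percentile. The setting outside the Lrg1/Fabp4 cluster was chosen after seeing the data. At the default clustering resolution the highest cluster level moved by more than the half-width of its counting interval for 3 of 9 genes (Gja4, Sox17 and Nr2f2). Positive cells numbered 6 to 19 per library, which limits every split by Nr2f2.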
